A study of Mus musculus with 6 samples.

Results

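Intergenic chromatin far from genes was described in hematopoietic stem cells, as regions that overlapped no annotated gene and lay more than 50 kb from either end of any protein-coding gene. Peaks of 6 ATAC-seq libraries on chromosomes 1 to 19 and X were merged into 84592 union regions wherever they shared at least 1 bp, and 6985 of these (8.26%) met this definition. They are called far regions here. A further 17849 regions (21.1%) also overlapped no gene but lay within 50 kb of a protein-coding gene's end, and are called near regions. The other 59758 regions (70.6%) overlapped a gene. Genes were those of the RefSeq table of GRCm38.p6 (mm10), with 49554 genes on these chromosomes, 21631 of them protein-coding.

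ATAC-seq uses the Tn5 transposase to cut and tag accessible DNA. The cells were about 20000 bone marrow cells per library, sorted as Lin-Sca-1+c-Kit+CD48-CD150+, from C57BL/6 mice aged 12 weeks under homeostasis. The 3 Dek_fl libraries came from Dekfl/fl mice, in which loxP sites flank part of both Dek alleles. The 3 Dek_cKO libraries came from Dekfl/fl,Tie2-Cre mice, in which control DNA of Tek (Tie2) drives Cre in endothelial and blood lineages, so that Cre is not limited to stem cells. Both groups carry the floxed alleles. Dek encodes a nuclear protein bound to chromatin. The design text mentions duplicates, but 3 libraries per group are listed. Separate or pooled animals are not told apart in the labels, so p-values reflect the spread among these libraries, possibly technical. With bulk libraries, fewer cells open at a site and less opening per cell cannot be told apart.

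Much of the mammalian genome lies outside genes, and long stretches without a gene are known as gene deserts. Accessible sites in such stretches are often enhancers, which are bound by transcription factors and can act on a promoter over a large distance, or promoters of non-coding RNAs. A nearest gene is a position on the chromosome and need not be the gene that a site acts on.

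Most far regions have no sequence in the sources used here, but 16 of the 6985 reached into the 300-base promoter window of a non-coding gene, defined as 250 bases before to 50 bases after its annotated start. Both letters and accessibility are at hand for the far DNA in these windows. The 4 windows whose region was called in 5 or 6 libraries are shown, and were picked after the calls were seen. Sequences are from RefSeq, GRCm38.p6, printed 5′ to 3′ on the gene's strand. Capitals mark matches, on either strand, to short motifs of blood transcription factors. The motif searched for RUNX factors was TGTGGT. For GATA factors the letters searched were AGATAA. Members of the ETS family were represented by AGGAAG. The AP-1 motif was written as TGANTCA. The E-box bound by basic helix-loop-helix factors was CAGCTG.
9330111N05Rik, chr13:80963824-80964123, plus strand: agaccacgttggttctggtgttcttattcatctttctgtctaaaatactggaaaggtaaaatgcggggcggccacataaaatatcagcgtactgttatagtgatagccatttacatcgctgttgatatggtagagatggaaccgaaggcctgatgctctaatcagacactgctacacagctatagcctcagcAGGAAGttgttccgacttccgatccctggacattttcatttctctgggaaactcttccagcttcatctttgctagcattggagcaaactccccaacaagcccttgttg
Gm19510, chr15:59794910-59795209, minus strand: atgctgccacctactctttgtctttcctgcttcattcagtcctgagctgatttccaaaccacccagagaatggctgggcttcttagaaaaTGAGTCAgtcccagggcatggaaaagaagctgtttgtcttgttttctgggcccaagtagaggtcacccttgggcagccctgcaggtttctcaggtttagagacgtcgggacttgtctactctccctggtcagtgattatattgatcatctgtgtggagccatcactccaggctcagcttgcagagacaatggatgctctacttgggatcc
Gm51939, chr11:22584398-22584697, minus strand: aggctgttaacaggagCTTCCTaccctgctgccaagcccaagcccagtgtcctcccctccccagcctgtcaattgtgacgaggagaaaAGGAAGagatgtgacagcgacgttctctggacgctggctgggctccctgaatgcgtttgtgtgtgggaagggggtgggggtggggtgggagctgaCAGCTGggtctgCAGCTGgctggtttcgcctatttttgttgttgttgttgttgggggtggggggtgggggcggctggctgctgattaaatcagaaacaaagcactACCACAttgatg
Gm35457, chr17:83963725-83964024, plus strand: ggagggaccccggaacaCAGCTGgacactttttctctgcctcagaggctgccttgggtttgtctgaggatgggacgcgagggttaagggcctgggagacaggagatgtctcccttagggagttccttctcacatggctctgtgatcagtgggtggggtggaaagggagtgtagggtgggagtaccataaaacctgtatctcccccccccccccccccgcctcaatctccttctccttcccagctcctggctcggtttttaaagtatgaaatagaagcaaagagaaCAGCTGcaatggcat

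The region at 9330111N05Rik covered bases 1 to 100 of the window, 66.6 kb from Arrdc3, and its fold over local background was 7.10, 8.45 and 10.4 in the Dek_fl libraries, in the order of replicates 1 to 3, and 7.86, 11.6 and 12.9 in the Dek_cKO libraries. Values of the 3 libraries of a group are given in this order throughout. The region at Gm19510 covered bases 1 to 169, 138 kb from Trib1, a pseudokinase gene that regulates C/EBPα, and its folds were 6.64, 7.02 and 6.09 in Dek_fl and 8.04, 7.84 and 9.26 in Dek_cKO. At Gm19510 all 3 Dek_cKO folds lay above all 3 Dek_fl folds, whereas the groups overlapped at 9330111N05Rik. Folds of different lists are not on one scale: the median fold of far peaks was 4.14, 4.40 and 7.45 in Dek_fl and 4.85, 5.00 and 7.83 in Dek_cKO. The percentile ranks each peak's fold within its own list, with 100 for the highest, and by percentile the groups overlapped at Gm19510 too (83.7, 84.6 and 25.6 in Dek_fl and 85.8, 78.9 and 60.5 in Dek_cKO). Elsewhere an overlap between groups is one of folds unless percentiles are named. The regions at Gm51939 (65.2 kb from Tmem17, bases 1 to 224) and Gm35457 (113 kb from Haao, bases 1 to 46) were called in every library except Dek_cKO replicate 3. Their folds in the other 5 libraries were 4.94 to 7.72 at Gm51939 and 4.99 to 7.78 at Gm35457.

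Within the part of the window covered by a peak, Gm51939 held 2 ETS and 2 E-box matches, Gm19510 held 1 AP-1 match starting at base 91, and Gm35457 held 1 E-box match. The ETS match of 9330111N05Rik started at base 193, outside the covered bases. Such matches are common. Of 32817 distinct promoter windows in the RefSeq table, 35.4% held the ETS motif, 16.8% the RUNX motif, 16.3% the E-box, 11.2% the GATA motif and 7.81% the AP-1 motif. No GATA match lay in the 4 windows, and no 2 matches in them overlapped.

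The peak lists differed in length and making, which bears on every count. Peaks numbered 52451, 71555 and 23813 in the Dek_fl lists and 70756, 73173 and 27170 in the Dek_cKO lists. The replicate 3 lists of both groups used a different cutoff, as their lowest −log10 p was 5.07 and 5.02, against 2.87 to 3.13 in the other 4. Read depth is not known from any list. A peak at the end of Dek was called in all 6 libraries, which checks no genotype because no source used here gives the floxed part. At the end of Tek, −log10 p was 260, 576 and 56.6 in Dek_fl and 32.9, 20.5 and 8.59 in Dek_cKO, so the stronger signal lay in the libraries whose label names no Tie2-Cre. Directions below are therefore between libraries as labelled. Of 8 genes that mark the sorted cells, 7, 8 and 2 had a peak within 1 kb of an end in Dek_fl and 7, 7 and 5 in Dek_cKO. Ly6a, which encodes Sca-1, had one in 1 library. Of 5 B cell genes, 1, 4 and 0 had one in Dek_fl and 4, 4 and 1 in Dek_cKO. Among genes of other cell types, Cdh5, Gata1, Elane, Ly6g, Cd8a, Cd3g and Ms4a1 had none in any library. Klf1, Epor, Pf4, Itga2b, Kdr and Cd48 had one in all 6, and their part in the results was not tested.

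Far regions were shared by fewer libraries than regions at genes. Of the 6985 far regions, 1489 (21.3%) were called in 1 library, 957 in 2, 1219 in 3, 2063 (29.5%) in 4, 508 in 5 and 749 (10.7%) in all 6. Over all union regions 23.3% were called in all 6, and the share was 13.5% for near regions and 27.6% for regions overlapping a gene. Beside the high share at 4 libraries stand the calls per library: 51.2%, 76.8%, 78.2% and 80.3% of far regions were called in Dek_fl replicates 1 and 2 and Dek_cKO replicates 1 and 2, against 14.0% and 19.4% in replicate 3 of Dek_fl and Dek_cKO. Over all union regions the shares in the same order were 59.9998%, 83.8%, 82.7% and 84.0%, and 27.5% and 31.3% in replicate 3.

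**Figure D1:**
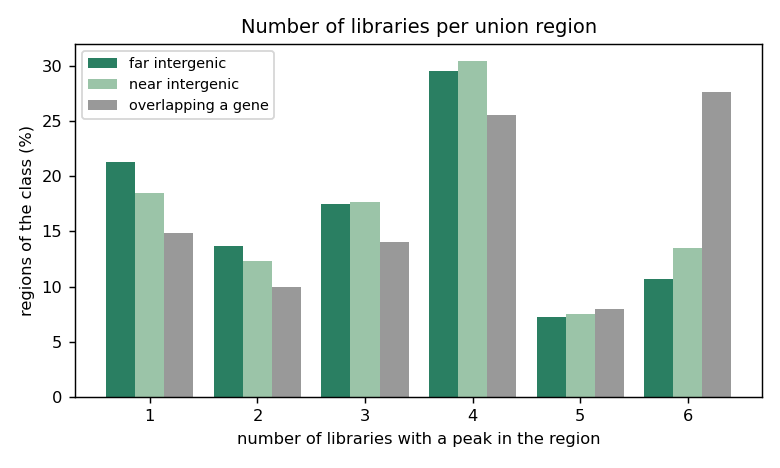
Share of regions (y axis, %) by the number of libraries with a peak in the region (x axis), for far regions, near regions and regions overlapping a gene. Of the 3 classes, far regions have the highest bar at 1 library (21.3%) and the lowest at 6 libraries (10.7%).

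Far regions were shorter than regions at genes. Their median length was 848 bp (quartiles 540 to 1216 bp, range 268 to 3529 bp), against 876 bp for near regions and 1064 bp for regions overlapping a gene. Length rose with the number of libraries by construction of the union, from a median of 398 bp for far regions called in 1 library to 1381 bp for those called in 6. In the 749 far regions called in every library, the peak summits of the 6 libraries spanned a median of 147 bp, and of 85 bp over replicates 1 and 2. The same spans in near regions were 153 and 82 bp.

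The far regions were thinly spread. DNA that overlaps no gene and lies beyond 50 kb of protein-coding genes made up 820 Mb, 60.4% of the intergenic DNA between protein-coding genes, and held 6936 (28.0%) of the 24755 regions outside genes in this DNA. That is 8.46 far regions per Mb, against 33.1 near regions per Mb of near intergenic DNA, a ratio of 3.91. For regions called in all 6 libraries the densities were 0.911 and 4.48 per Mb, a ratio of 4.92. Unsequenced stretches were not subtracted, which lowers the far density. A further 49 far regions lay beyond the outermost protein-coding gene of a chromosome and are left out of this share and the densities. By chromosome the density was lowest on X (2.86 per Mb) and highest on 10 (13.2 per Mb) and 13 (12.5 per Mb).

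Distance to the nearest protein-coding gene had a median of 111 kb (quartiles 73.1 to 198 kb). It exceeded 500 kb at 337 far regions and 1 Mb at 59. Non-coding genes and pseudogenes were closer, with a median of 25.4 kb, and 223 far regions (3.19%) lay within 1 kb of one. Regions were called in all 6 libraries in 12.8% of cases at 50 to 100 kb, 10.1% at 100 to 200 kb, 7.48% at 200 to 500 kb and 9.20% beyond 500 kb. At the limit itself the share was 14.5% for the 469 regions just beyond it, at 50 to 55 kb, and 12.6% for the 516 regions just inside, at 45 to 50 kb. Among the regions called in every library, the median of the mean percentile of fold was 66.8 at 50 to 100 kb, 69.9 at 100 to 200 kb, 72.1 at 200 to 500 kb and 78.4 beyond 500 kb.

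**Figure D2:**
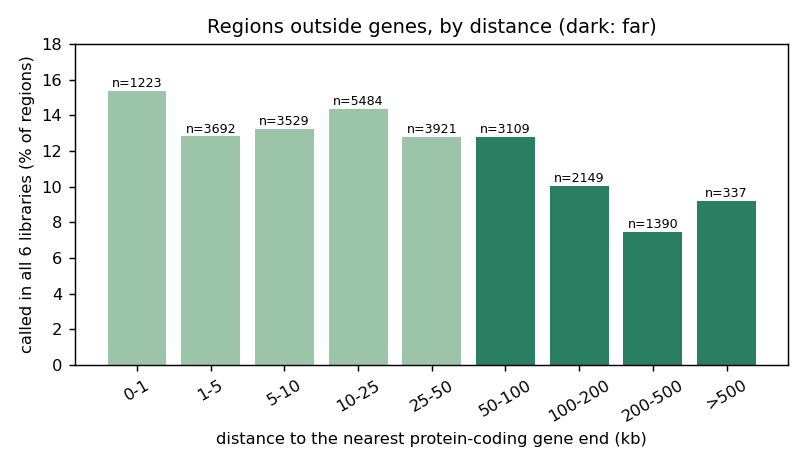
Share of regions outside genes called in all 6 libraries (y axis, %) by distance to the nearest protein-coding gene end (x axis, kb), with the number of regions above each bar and far regions in the dark shade. The bars fall from 12.8% at 50 to 100 kb to 7.48% at 200 to 500 kb.

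The strongest far regions, by mean percentile of fold over the 6 libraries, lay near genes of varied function. First was a 481 bp region (chr3:5860346-5860826) 282 kb from Pex2, a gene of peroxisome formation, with folds of 16.8, 16.3 and 18.5 in Dek_fl and 16.9, 17.1 and 17.8 in Dek_cKO. Its −log10 p was 319, 426 and 61.8 in Dek_fl and 569, 416 and 56.3 in Dek_cKO. At the other regions of this ranking −log10 p reached at most 172, near 9530057J20Rik. In replicate 3 it was higher near Olfr291 (67.4 in Dek_fl and 81.4 in Dek_cKO) than near Pex2. The Pex2 region is not among the repeat-like regions described further on, and whether it is a repeat was not tested. Second was chr7:84779081-84780147, 73.4 kb from the olfactory receptor gene Olfr291, with folds of 10.6, 11.3 and 18.01 in Dek_fl and 12.3, 14.6 and 20.1 in Dek_cKO. Next came chr2:83993759-83994921, 52.5 kb from Zswim2 and 241 bp from the non-coding gene Gm13691, with folds of 13.9, 13.3 and 14.7 in Dek_fl and 13.8, 16.4 and 15.4 in Dek_cKO. The groups overlapped at these 3 regions.

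Of the next 5, 3 lay near genes with known roles in blood cells. The region chr9:32939922-32941568 lies 182 kb from Ets1, a transcription factor of lymphoid and endothelial cells, and its folds were 8.53, 10.4 and 15.8 in Dek_fl and 10.1, 13.0 and 16.4 in Dek_cKO. The region chr1:194879281-194880220 lies 58.6 kb from Cd34, the surface protein used to grade stem and progenitor cells, with folds of 9.56, 11.7 and 14.7 in Dek_fl and 13.1, 14.5 and 14.1 in Dek_cKO. The region chr5:3151905-3152746 lies 188 kb from Cdk6, a cell cycle kinase, with folds of 13.9, 12.4 and 13.6 in Dek_fl and 15.1, 15.3 and 13.8 in Dek_cKO. The groups overlapped at Ets1, Cd34 and Cdk6. The other strong regions lay 187 kb from 9530057J20Rik (chr8:20122173-20123990, folds 13.1 to 19.1 over the 6 libraries) and 236 kb from Myt1l, a neuronal transcription factor (chr12:29290511-29291680, folds 9.52 to 14.7). The rank test described further on called none of these 8 regions different between the groups.

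Far regions also lay near regulators of stem cells, with mean percentiles of fold from 41.9 to 90.3 at the 10 regions named by rule. Klf6, a zinc finger factor, had a region 268 kb away (chr13:5591733-5593228) with folds of 7.65, 7.70 and 14.3 in Dek_fl and 9.32, 8.88 and 12.2 in Dek_cKO. Runx1, which is required for the emergence of blood stem cells, had one 57.4 kb away (chr16:92883457-92884966) with folds of 7.01, 6.97 and 9.72 in Dek_fl and 8.23, 8.58 and 9.93 in Dek_cKO. Id2, an inhibitor of E proteins, had one 144 kb away (chr12:25239828-25241165) with folds of 5.17, 5.71 and 7.73 in Dek_fl and 8.16, 8.197 and 10.2 in Dek_cKO. The groups overlapped at Klf6 and Runx1, and all 3 Dek_cKO folds exceeded all 3 Dek_fl folds at Id2, as did the percentiles (65.0, 68.5 and 48.4 in Dek_fl and 86.7, 82.0 and 69.0 in Dek_cKO). The rank score at Id2 differed by 0.61 (SE 0.29, n = 3 per group), short of the limma threshold (Benjamini-Hochberg adjusted p = 1.0).

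The same rule named the strongest shared far region of 7 other regulators. It lay 1253 kb from Zeb2, a zinc finger factor of blood cell differentiation (chr2:46370697-46372053), where folds ran from 4.87 in Dek_fl replicate 1 to 17.0 in Dek_cKO replicate 3. It lay 581 kb from Klf4 (chr4:56113358-56114793, folds 6.10 to 12.7), 335 kb from Satb1, which organises chromatin in lymphoid cells (chr17:52167968-52169098, 6.40 to 15.1), and 199 kb from Ikzf2, which encodes Helios (chr1:69331306-69332432, 6.63 to 9.95). For Cebpb, a myeloid factor, it lay 62.6 kb away (chr2:167753062-167754785, 6.38 to 14.1). For Bcl11a, a lymphoid and globin-switching factor, it lay 88.0 kb away (chr11:23987330-23988569, 4.81 to 9.04), and for Zfp36l2, an RNA-binding protein, 55.3 kb away (chr17:84125881-84128633, 3.94 to 6.49). The groups overlapped at each of these 7 regions.

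Several gaps between neighbouring protein-coding genes held groups of far regions. There were 2768 gaps with far DNA, of which 1545 (55.8%) held at least 1 far region and 457 held at least 1 called in all 6 libraries. The gap between Haao and Zfp36l2 on chromosome 17 ranked first, with 7 regions called in all 6 among 21 far regions. It held 13, 20 and 11 called far regions in Dek_fl and 18, 17 and 9 in Dek_cKO. Its strongest shared region (chr17:83990028-83991356) had folds of 5.75, 5.54 and 10.5 in Dek_fl and 6.84, 7.35 and 11.9 in Dek_cKO. By count of called regions neither group was higher in all 3 replicates.

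The gap between Cxcr4 and Thsd7b on chromosome 1 held 16 far regions, 6 of them called in all 6 libraries and these lying 112 to 240.0 kb from Cxcr4, the receptor for CXCL12 that keeps stem cells in the marrow. The strongest lay 112 kb from Cxcr4 (chr1:128704563-128705992), with folds of 7.57, 8.27 and 12.1 in Dek_fl and 8.78, 9.92 and 11.7 in Dek_cKO. The next lay 120 kb away (chr1:128712379-128713609), with folds of 5.17, 7.28 and 12.3 in Dek_fl and 8.01, 9.18 and 10.997 in Dek_cKO. The highest fold lay in Dek_fl replicate 3 at both and the groups overlapped. Cxcr4 was the nearest protein-coding gene of 18 far regions in all, counting both of its sides, and 7 of these were called in every library.

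The other gaps with 6 such regions were Serp2 to Lacc1 (6 of 25 far regions), Rybp to Shq1 (6 of 16), Akr1e1 to Klf6 (6 of 15), Spring1 to Med13l (6 of 14) and Ccnd2 to Parp11 (6 of 14). Rybp encodes a Polycomb subunit and Ccnd2 a D-type cyclin. In the Akr1e1 to Klf6 gap the region chr13:4771145-4772458, 162 kb from Akr1e1, was strong in every library, with folds of 9.64, 9.36 and 13.8 in Dek_fl and 9.44, 9.80 and 15.4 in Dek_cKO. In the Rybp to Shq1 gap, the region chr6:100356661-100358005 had folds of 7.89, 9.97 and 5.64 in Dek_fl and 11.8, 11.5 and 6.10 in Dek_cKO, and the groups overlapped at both. Gadd45g to Diras2 held the most far regions of the 10 leading gaps (38, with 5 called in all 6), and Ndfip2 to Spry2 and Ttll7 to Adgrl2 completed this list (24 each, with 5). Gadd45g is a growth arrest gene, Spry2 an inhibitor of receptor tyrosine kinase signalling and Adgrl2 an adhesion receptor.

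The gap between Myc and Gsdmc held 21 far regions, and all 5 called in every library lay between 1620 and 1714 kb from Myc, toward Gsdmc. The strongest of these (chr15:63647641-63648595) had folds of 8.21, 6.28 and 14.4 in Dek_fl and 7.32, 7.83 and 16.5 in Dek_cKO, with overlapping groups. This gap was chosen after its values were seen.

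The density of far regions varied between lists of nearby genes. Over all far DNA there were 8.46 far regions per Mb. Far DNA nearest to genes of stem cell regulators held 20.01 per Mb, that nearest to cytokine receptors and surface proteins of stem cells 31.4 per Mb, that nearest to lymphoid genes 19.5 per Mb, and that nearest to myeloid, erythroid and megakaryocyte genes 27.3 per Mb. These lists share members, rest on 1.46 to 9.09 Mb of far DNA and 40 to 182 regions, and were not tested against other lists. Far DNA nearest to developmental transcription factors of gene deserts held 7.65 per Mb, that nearest to olfactory and vomeronasal receptors 3.64 per Mb and that nearest to neuronal adhesion genes 1.08 per Mb. The last covers 71.0 Mb and 77 regions, 3 of them called in all 6 libraries.

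**Figure D3:**
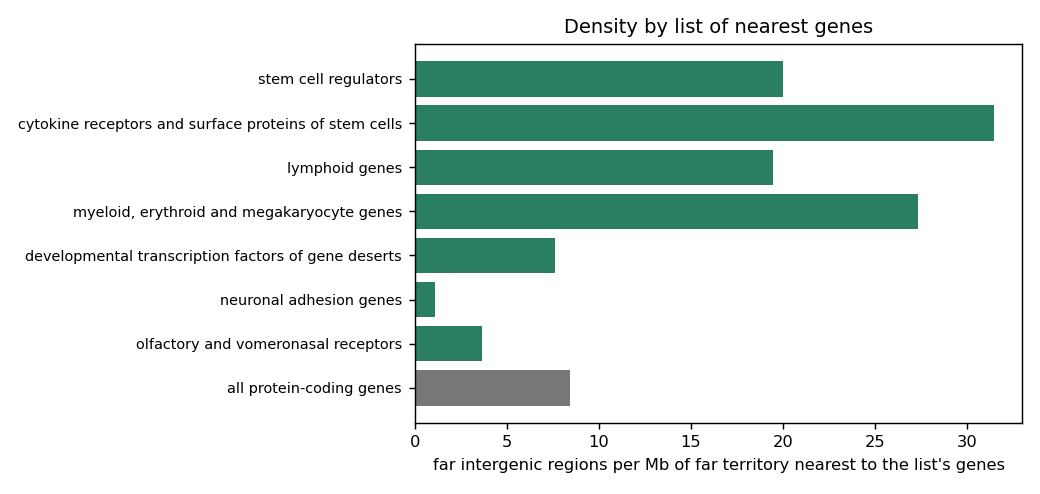
Far regions per Mb of far intergenic DNA (x axis) for the DNA nearest to the genes of each list (y axis), with all protein-coding genes in grey. The 4 blood lists lie between 19.5 and 31.4 per Mb, above the 8.46 per Mb of all genes, and the neuronal adhesion genes lie lowest at 1.08 per Mb.

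Far regions were spread unevenly over the genes of a list. Of 47 stem cell regulators 22 were the nearest protein-coding gene of a far region, and their 182 regions, 22 of them called in all 6 libraries, were led by Bcl11a (20 regions), Klf4 (17), Runx1 (16) and Zeb2 (16). Of 29 cytokine receptors and surface proteins 7 had far regions, 52 in all with 12 called in all 6, led by Cxcr4 (18), Ptprc, which encodes CD45 (14), and Kit, the receptor for stem cell factor (8). Of 24 lymphoid genes 8 had 66 far regions, 12 of them called in all 6, led by Foxo1 and Gata3 (13 each). Of 25 myeloid, erythroid and megakaryocyte genes 5 had 40, 3 of them called in all 6, led by Mef2c (13). Of 56 developmental transcription factors 35 had 166, 12 of them called in all 6, led again by Bcl11a. Of 64 neuronal adhesion genes 26 had 77, among them 9 at Epha4, and of 1480 olfactory and vomeronasal receptors 11 had 27, led by Vmn1r2 (8). Of all 21631 protein-coding genes 2087 were nearest to a far region. Of all far regions 10.7% were called in all 6 libraries. This share was 12.1% for stem cell regulators, 23.1% for cytokine receptors and surface proteins, and 18.2% for lymphoid genes. It was lower, at 7.5%, for myeloid, erythroid and megakaryocyte genes, and 7.23% for developmental transcription factors. For neuronal adhesion genes it was 3.90% and for olfactory and vomeronasal receptors 3.70%. These shares were not tested.

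The mean number of libraries per far region was 1.42 of 3 in Dek_fl and 1.78 of 3 in Dek_cKO over all far regions. Near stem cell regulators these means were 1.42 and 1.76, near lymphoid genes 1.73 and 1.94, near neuronal adhesion genes 1.27 and 1.69, and near myeloid, erythroid and megakaryocyte genes 1.48 and 1.5. The Dek_cKO mean was the higher in each of these lists, and the Dek_cKO list was also the longer within each replicate number.

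Large stretches of far DNA held no peak in any library. Gaps with no far region added up to 202 Mb of far DNA, from which unsequenced stretches were not subtracted. Among the widest were the gap between the protocadherin genes Pcdh20 and Pcdh9 on chromosome 14, with 4134 kb of far DNA, and that between the cadherin genes Cdh8 and Cdh11 on chromosome 8, with 2678 kb. Other wide ones were not flanked by cadherin genes. They include the gaps from LOC115489384 to Rab10 (2986 kb), LOC102636558 to Xkr4 (2868 kb) and Prmt6 to Amy2b (2586 kb). Without read counts an uncalled stretch is not shown to be closed.

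Single regions lay deep inside such deserts. The shared region farthest from any protein-coding gene, chr5:59996070-59997187, lay 1812 kb from G6pd2, and its folds were 7.31, 8.002 and 11.8 in Dek_fl and 9.02, 10.6 and 15.4 in Dek_cKO. After it came one 1632 kb from Pabpc4l (chr3:48080297-48081431), with folds of 6.13, 7.85 and 9.85 in Dek_fl and 6.90, 8.22 and 7.59 in Dek_cKO. Another lay 1411 kb from Cntnap5b (chr1:101901723-101903232), with folds of 8.04, 10.4 and 7.69 in Dek_fl and 10.3, 13.1 and 10.6 in Dek_cKO. Within each replicate number the Dek_cKO fold was the higher at G6pd2 and Cntnap5b and the groups overlapped at all 3. By percentile this direction held at G6pd2 but not in replicate 2 at Cntnap5b (99.61 in Dek_fl and 99.59 in Dek_cKO). The mean percentiles of fold at these 3 regions were 91.8, 73.2 and 85.1.

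The widest far regions were of lower rank. They measured 3529 bp near Vmn1r2 (chr4:3080904-3084432), 3264 bp near Zeb2 (chr2:45169243-45172506) and 3218 bp near Xxylt1 (chr16:30787519-30790736), with mean percentiles of 17.8, 36.7 and 35.4. The Vmn1r2 region was called in replicates 1 and 2 of both groups and in neither replicate 3. Far regions lay a median of 26.3 kb apart, and 18.9% of neighbouring pairs lay within 5 kb.

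A few far regions were repeat-like by the rule given next, and regions outside this rule were not examined for repeats. Of the 6985, 14 lay below 3.1 Mb of chromosome 9 (12 regions, between 3000270 and 3038229) or held a peak with −log10 p above 1000 (chr2:98666552-98667322, with up to 26223, and chr14:19416896-19418977). They were called in 3 or 4 libraries, none of them in replicate 3. Leaving them out changed no direction and no call among the group comparisons below.

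Between the groups, the share of peaks in far regions overlapped. It was 6.96%, 7.52% and 4.15% in Dek_fl and 7.79%, 7.79% and 5.04% in Dek_cKO. Both replicate 3 libraries were the lowest, and within each replicate number Dek_cKO was the higher. Dek_fl averaged 6.21% ± 1.81 (SD, n = 3) and Dek_cKO 6.87% ± 1.59, which differ by 0.664 percentage points (exact two-sided permutation test over the 20 assignments, p = 0.50, where 0.1 is the smallest possible). The difference was 0.549 points within replicates 1 and 2 and 0.894 within replicate 3, and 0.209 in lists of equal length. Without Dek_fl replicate 3 it turned to -0.367 points.

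The number and covered length of far peaks also overlapped between the groups, and both were lowest in the replicate 3 lists. Far peaks numbered 3648, 5381 and 987 in Dek_fl and 5509, 5697 and 1369 in Dek_cKO, with Dek_cKO higher within each replicate number. The difference of 0.38 on the log2 scale was smaller than the spread between libraries (two-sided exact permutation test, n = 3 per group, p = 0.50). Within replicates 1, 2 and 3 it was 0.59, 0.08 and 0.47. With the replicate number as a block the exact permutation p was 0.25, the smallest that 3 pairs allow. Far peaks covered 2571, 4928 and 492 kb in Dek_fl and 4656, 4300 and 659 kb in Dek_cKO. That is a log2 difference of 0.36 (exact permutation p = 0.70, or 0.50 with the block). Without Dek_fl replicate 3 both differences changed sign, to -0.34 for number and -0.59 for covered length, and covered length also did so without Dek_cKO replicate 1 (-0.13) or Dek_cKO replicate 2 (-0.07).

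The length and rank of far peaks differed between the groups by less than the spread between libraries. Median length was 635, 839 and 455 bp in Dek_fl and 767, 683 and 442 bp in Dek_cKO, with means of 643 ± 192 bp (SD, n = 3) and 631 ± 169 bp (exact permutation p = 0.90, two-sided). Leaving out Dek_fl replicate 2 or Dek_cKO replicate 3 turned the difference of -12.3 bp to 85.7 and 82.0 bp. The median percentile of fold was 44.3, 46.9 and 44.4 in Dek_fl and 46.5, 45.4 and 44.2 in Dek_cKO, a difference of 0.199 (two-sided exact permutation test, n = 3 per group, p = 1.0), which changed sign when Dek_fl replicate 1 (-0.264), Dek_fl replicate 3 (-0.205) or Dek_cKO replicate 1 (-0.377) was left out. The groups overlapped in both measures.

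**Figure D4:**
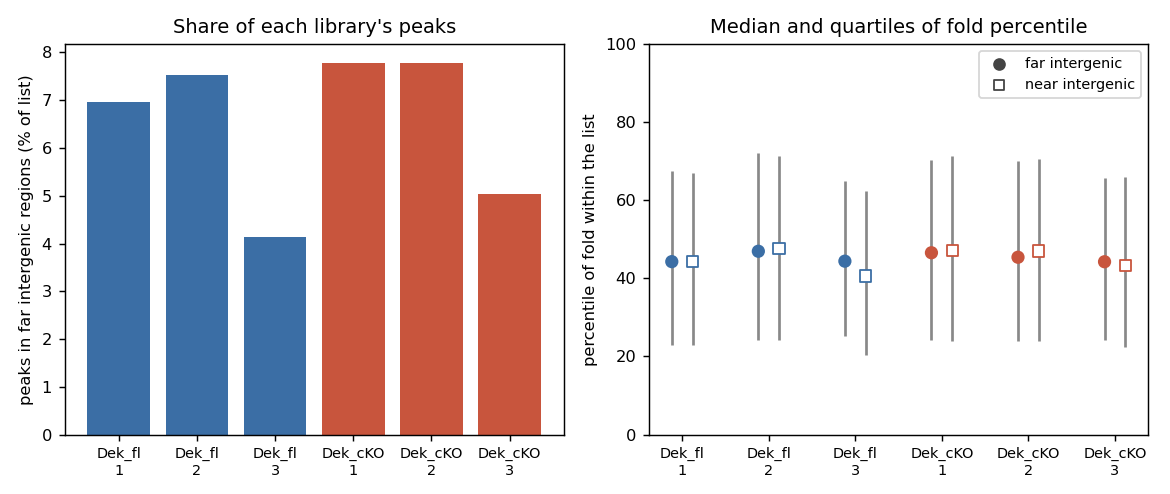
Left, share of each library's peaks that lie in far regions (y axis, % of list) for 3 Dek_fl and 3 Dek_cKO libraries (x axis, replicate number). Right, median (points) and quartiles (lines) of the percentile of fold of far and near peaks in the same libraries. Both replicate 3 bars are the lowest of their group, at 4.15% and 5.04%, and the far medians all lie between 44.2 and 46.9.

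In the deposited lists the rank of far peaks was not shown to differ from that of near peaks. In each library the median percentile of far peaks was compared with that of near peaks, and the difference (far minus near) was 0, -0.649 and 3.83 in Dek_fl and -0.520, -1.59 and 1.01 in Dek_cKO. Its mean was 0.347 (exact two-sided sign-flip permutation test over 6 libraries, p = 0.81). In lists of equal length the far median was higher by 5.29 points, and at −log10 q of at least 10 by 3.93 points (exact sign-flip permutation p = 0.031 for each, the smallest possible with n = 6). Far peaks were shorter than near peaks by 7.83 bp on average (exact sign-flip permutation p = 0.063), and longer by 25.8 bp and 27.7 bp in those same 2 shorter sets of peaks (p = 0.13 and 0.094). With other limits for a far region the length difference passed the test, at -5.58 bp with 25 kb, -17.1 bp with 100 kb and -37.2 bp with 50 kb from any gene (exact sign-flip permutation p = 0.031 for each, n = 6).

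Regions called in one group alone were few. There were 4 far regions with a peak in all 3 Dek_cKO libraries and no Dek_fl library (0.0573%), against a background of 0.104% of all union regions. There was no far region with a peak in all 3 Dek_fl and no Dek_cKO library, against 0.00355% of all regions. With peaks in 2 or 3 libraries of a single group, there were 322 far regions (4.61%) for Dek_cKO, against 3.19% of all regions, and 24 (0.344%) for Dek_fl, against 0.344% of all regions. Of the 322, 318 were called in 2 Dek_cKO libraries. The difference between 4.61% and 3.19% was not tested, and far regions were also called in fewer libraries than others. Leaving out 1 library also relaxes the rule, and these counts moved with single libraries: the Dek_cKO count became 55 without Dek_fl replicate 2, 8 without Dek_fl replicate 3, 25, 8 and 297 without Dek_cKO replicates 1, 2 and 3, and the Dek_fl count 3 and 21 without Dek_fl replicates 1 and 3. These Dek_cKO counts are 0.787%, 0.115%, 0.358%, 0.115% and 4.25% of far regions, against 0.877%, 0.162%, 0.231%, 0.218% and 2.95% of all regions. The Dek_fl counts are 0.0429% and 0.301%, against 0.0213% and 0.325% of all.

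The 4 far regions called in Dek_cKO alone were weak. The region 74.9 kb from Igfbp7, a secreted binding protein of insulin-like growth factors (chr5:77482903-77483617), had folds of 4.70, 3.39 and 7.36 in Dek_cKO replicates 1, 2 and 3. The region 173 kb from Eya1, a developmental transcriptional coactivator (chr1:14484343-14485021), had folds of 4.41, 3.93 and 6.76. The region 210.0 kb from Camk1g, a calcium-regulated kinase gene (chr1:193580384-193580964), had folds of 3.36, 4.74 and 6.75. The last lies between Runx1 and Setd4 (chr16:93287503-93288284), 461 kb from Runx1 and 295 kb from Setd4, with folds of 2.64, 4.82 and 7.96. Their percentiles of fold within the 3 lists ranged from 6.47 to 45.8, so each lay below the median of its list.

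The 749 far regions called in every library were compared by rank. Folds were ranked within each library over all 19683 regions called in all 6, turned into normal scores and tested with limma, with Benjamini-Hochberg adjustment over the 19683. No far region passed an adjusted p of 0.05 in either direction, as for all 19683 (0% called). At an unadjusted p under 0.05 there were 4 far regions higher in Dek_cKO (0.534%, background 0.345%) and 0 lower (background 0.0965%). Both directions together made up 0.442% of all 19683, well below the share of 0.05 that this limit gives without any difference. The main fit was therefore cautious, and its lack of calls does not show that the groups are alike. The unadjusted counts moved with single libraries. Those higher in Dek_cKO numbered 1 when replicate 1 of either group was left out (0.134%, against 0.117% and 0.193% of all). They numbered 18 without Dek_fl replicate 2 (2.40%, against 1.21% of all) and 19 without Dek_cKO replicate 3 (2.54%, against 1.52%). Those lower numbered 5 without Dek_fl replicate 3 (0.668%, against 0.345%) and 1 without each of the others (0.134%, against 0.0762% to 0.290%). With the replicate number as a block, 44 far regions were higher (5.87%, against 2.97% of all) and 19 lower (2.54%, against 1.47%) at an unadjusted p under 0.05. In that fit 1 of the 19683 regions, not a far region, passed an adjusted p of 0.05, and the smallest adjusted p of a far region was 0.389 (limma). With a term for replicate 3 against the others the unadjusted counts were 37 (4.94%, against 2.77% of all) and 21 (2.80%, against 1.53%). No region passed an adjusted p of 0.05 with this term. The median difference in score, Dek_cKO minus Dek_fl, was 0.05 over far regions and -0.02 over all regions tested, and it was positive at 412 of the 749 far regions (55.01%) against 47.3% of all. Regions called in fewer libraries could not enter this test.

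The 5 far regions of smallest p toward Dek_cKO are given as a description. Near Pcsk1, a prohormone convertase gene (chr13:75227513-75228640, 92.7 kb), folds were 5.68, 8.58 and 8.198 in Dek_fl and 10.5, 11.4 and 14.3 in Dek_cKO, a score difference of 1.13 (SE 0.40, limma adjusted p = 1.0, or 0.39 with the replicate number as a block). Near Tut7, a uridylyltransferase gene (chr13:59875230-59876267, 52.1 kb), they were 6.28, 7.57 and 11.9 in Dek_fl and 9.92, 10.8 and 16.1 in Dek_cKO. Near Tbc1d2b (chr9:90430310-90431810, 159.5 kb) they were 6.99, 8.05 and 10.7 in Dek_fl and 9.83, 10.95 and 15.9 in Dek_cKO. By percentile the groups overlapped at Pcsk1 (54.4 to 95.6 in Dek_fl and 92.9 to 97.9 in Dek_cKO) but not at Tut7 (79.9 to 89.5 and 96.1 to 97.3) or Tbc1d2b (78.1 to 92.9 and 96.0 to 96.9), whereas by fold they overlapped at the last 2 and not at Pcsk1. The remaining regions of this kind lay 64.2 kb from Gm46353 (chr12:69485607-69486471, folds 5.14 to 8.05 in Dek_fl and 8.23 to 12.7 in Dek_cKO) and 243 kb from Ndst4 (chr3:125159682-125160974, 5.31 to 7.19 and 9.17 to 9.22), where the folds did not overlap between the groups. By percentile the groups did not overlap at Gm46353 (52.5 to 78.0 in Dek_fl and 82.4 to 90.3 in Dek_cKO) and overlapped at Ndst4 (41.1 to 77.2 and 60.1 to 93.2). The other score differences were 0.86 at Tut7, 0.73 at Tbc1d2b, 0.76 at Gm46353 and 0.74 at Ndst4.

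**Figure D5:**
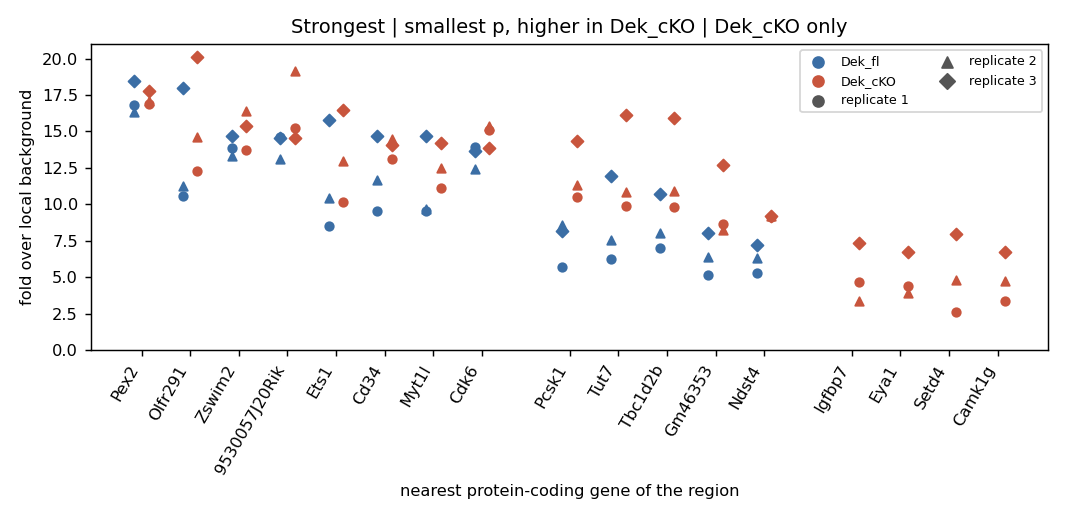
Fold over local background (y axis) in each library for 17 far regions named by their nearest protein-coding gene (x axis): the 8 strongest, the 5 of smallest p toward Dek_cKO and the 4 called in Dek_cKO alone, where Dek_fl has no value. Colour marks the group and shape the replicate number; the strongest regions reach 20.1 and those called in Dek_cKO alone stay at or below 7.96.

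Toward Dek_fl the smallest p-values lay near Il12a, Mn1, Eea1, Gm4802 and Cebpb. Near Il12a, which encodes a subunit of interleukin-12 (chr3:68777856-68779402, 79.3 kb), folds were 5.42, 6.19 and 8.87 in Dek_fl and 6.44, 5.91 and 5.69 in Dek_cKO, a score difference of -0.74 (SE 0.35, limma adjusted p = 1.0). Near Mn1, a transcriptional regulator fused in myeloid leukemia (chr5:111535415-111536662, 78.4 kb), they were 7.71, 6.45 and 9.56 in Dek_fl and 6.87, 8.05 and 5.93 in Dek_cKO, a difference of -0.85 (SE 0.41). By fold, Dek_fl replicate 3 was the highest library at both and Dek_cKO replicate 3 the lowest or next to it. By percentile, Dek_fl replicate 3 was instead the lowest Dek_fl library (61.8 at Il12a and 68.5 at Mn1). Dek_cKO replicate 3 was the lowest of all libraries by percentile (15.7 and 18.7). The groups overlapped at both by either measure. The score differences were -0.59 at Eea1 (chr10:96273754-96275384), -0.61 at Gm4802 (chr16:49503324-49505001) and -0.67 at Cebpb, where the region chr2:167759735-167760652 lies 69.3 kb from the gene. None of these unadjusted p-values was under 0.05 without the block.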

How the data were processed

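ATAC-seq peak lists of 6 libraries, 3 per group, were used, with 1 list per library called by the authors. The build was mm10 and the tools named are Bowtie2, Picard and MACS2, per the submitters' processing notes. Versions, settings and any shift of reads are not stated there. The deposited columns were a score, a fold enrichment (ratio) over local background, −log10 p and −log10 q, and were used only to rank, filter or describe peaks. The deposited score was 10 times −log10 q in replicates 1 and 2 and 10 times −log10 p in replicate 3. The lists hold no read counts, so depth is unknown and no counting interval can be given.

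Far DNA was counted base by base between neighbouring protein-coding genes, and each base assigned to the nearer gene. The RefSeq table gives gene starts and ends without exons, so distances are to either end. Group values were compared by exact permutation tests of 6 libraries, far against near peaks by exact sign flips, and shared regions with limma 3.58.1 (R 4.3.3). Other steps used Python 3.11.15, pandas 2.3.3, NumPy 2.4.6 and SciPy 1.17.1, and the limma step was checked on simulated data. Same-numbered libraries deviated together from their group means (r = 0.27, 0.52 and 0.74), but so did unlike numbers within replicates 1 and 2 (0.31 and 0.57), so the replicate number was a block in an alternative fit.

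Named regions were the 8 strongest shared ones, the 5 of smallest limma p per direction, those called in one group alone, the 3 widest, the 3 farthest shared ones, the 10 gaps with the most shared regions, the strongest near each of up to 10 stem cell regulators, and the leading gene of each other list. The members and lists were chosen with earlier results of these data known. Some genes of the lists are counted but not reported here by name.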

Additional observations from a re-analysis of the deposited data

How the results depend on the processing

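Of 180 recomputed values 132 counted as the same as the main value, 18 changed sign, 25 moved and 5 passed the threshold where the main value did not. Differences counted as the same if they kept their direction and side of the threshold. Counts called in one group alone did so within a set ratio of the main count, and rank tests if no far region was called. The percent called in all libraries did so within the 95% confidence interval of the main value. For the 5 group differences only direction could change, because no exact permutation p could fall under 0.05. The smallest possible was 0.1 with 3 against 3 libraries and 0.25 with 3 pairs. Far minus near could not cross that limit either with fewer libraries or with the block. For these values, counting as the same says nothing about the test. In the rank tests the smallest adjusted p of a far region was 0.389 (limma). Moved values went either up or down. The alternatives for the percent called in all libraries, and that over 1 kb from any gene end, were chosen after seeing the data. With 1 library left out at a time, the group differences ranged from -0.367 to 1.58 percentage points for the share of peaks in far regions, -0.34 to 1.06 for log2 peak number, -0.59 to 1.28 for log2 covered length, -106 to 85.7 bp for median length and -0.377 to 1.07 for the median percentile of fold. Far minus near ranged from -0.349 to 0.735 percentile points and from -10.0 to -6.40 bp. The count called in Dek_cKO alone ranged from 4 to 297, that in Dek_fl alone from 0 to 21, and the percent called in all remaining libraries from 10.7 to 15.7. The rank test (limma) called 0 far regions in either direction under every alternative that was run. Far regions at an unadjusted p under 0.05 numbered 0 to 44 higher and 0 to 21 lower in Dek_cKO. The largest of these counts were 5.87% of far regions, against 2.97% of all, and 2.80%, against 1.53%.

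In replicates 1 and 2, 302 far regions (4.32%, against 3.02% of all regions) were called in Dek_cKO alone and 21 (0.301%, against 0.333%) in Dek_fl alone, 45.8% were called in all 4 libraries (56.1% of all regions), and far minus near percentile was -0.690. In replicate 3 these counts were 520 (7.44%, against 6.84%) and 147 (2.10%, against 3.05%), the share was 11.9% (24.5%), and the median percentile differed by -0.146 between the groups. Lists of equal length gave 5 far regions in Dek_cKO alone (0.0716%, against 0.0473% of all regions) and 2 in Dek_fl alone (0.0286%, against 0.0851%). They gave 6.46% in all libraries (17.9% of all regions) and a median length difference of 29.8 bp. Far minus near values were then 5.29 points and 25.8 bp. At −log10 q of at least 10 the last values were 3.93 points and 27.7 bp, and 6.36% were called in all libraries. With a limit of 25 kb, 8 far regions (0.0734%, against 0.104% of all regions) were called in Dek_cKO alone and 11.5% in all libraries. Far minus near length was then -5.58 bp. With 100 kb, 9.06% were called in all libraries and far minus near was -0.761 points and -17.1 bp. With 50 kb from any gene, 2 (0.0972%, against 0.104%) were called in Dek_cKO alone and 8.17% in all libraries. The median percentile then differed by -0.118 between the groups, and far minus near length was -37.2 bp. Requiring a library to cover 50% of the region left 2 in Dek_cKO alone (0.0286%, against 0.0686%) and 1.36% in all libraries (5.53% of all regions). Beyond the looser or stricter definitions themselves, the cause was not tested. With the replicate number as a block, the difference in the share of peaks stayed at 0.664 points (exact permutation p = 0.25, the smallest 3 pairs allow), the smallest adjusted p of a far region was 0.389 (limma), and no call of a far region changed, while 1 other region passed. Depth is unknown, so a region that was not called is not shown to be closed.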
